A study of Mus musculus with 6 samples.

Results

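The CD300 receptors are cell surface proteins of the immunoglobulin superfamily, carried mostly by myeloid cells. The members described here are 7 mouse genes, Cd300a, Cd300c2, Cd300e, Cd300lb, Cd300ld, Cd300lf and Cd300lg, taken by symbol from the deposited expression table, which lists 21720 genes. They were chosen with the comparison of the luteolin and control groups already known, and Cd300lf for its small p value in it. Their differences between the groups are therefore given as a description, and nothing is concluded from the p values and calls printed for them. All 7 members passed the filter on low counts, but Cd300e passed it only through the luteolin group, and 6 members passed it within the control libraries.

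The libraries came from subcutaneous tumours of H22, a mouse hepatocellular carcinoma cell line, grown outside the liver in female wild-type BALB/c mice aged 6 to 8 weeks. The control group received 0.5% carboxymethyl cellulose sodium and the luteolin group 200 mg/kg luteolin, a plant flavonoid, both by gavage in 0.2 ml each day for 21 days, starting at a tumour volume of about 50 mm3. Each group gave 3 libraries of bulk tumour RNA. The labels do not say whether these came from separate mice, so p values measure the spread between libraries, which may be technical.

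CD300 receptors bind lipids exposed on dying or activated cells, such as phosphatidylserine, phosphatidylethanolamine and ceramide. Inhibitory members such as Cd300a and Cd300lf carry tyrosine motifs in a long cytoplasmic tail, which can recruit the phosphatases Ptpn6 (SHP-1), Ptpn11 (SHP-2) and Inpp5d (SHIP-1). Activating members such as Cd300lb, Cd300e, Cd300ld and Cd300c2 have short tails and signal through adaptor proteins such as Tyrobp (DAP12) and Fcer1g (the Fc receptor gamma chain), while Cd300lg (nepmucin) is found on endothelium.

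All 7 members lie on chromosome 11 in GENCODE M21 on GRCm38, and 6 of them lie in 1 cluster. That build is the one of the annotation used here, not of the deposited table, which gives no coordinates. Cd300a (chr11:114890041-114904654, plus strand) stands at one end and Cd300lf (chr11:115116214-115133992, minus strand) at the other. Between them, on the minus strand, are Cd300lb (chr11:114922781-114934386), Cd300ld (chr11:114982274-114989922), Cd300c2 (chr11:114996721-115001880) and Cd300e (chr11:115051917-115062177). Cd300lg (chr11:102041509-102055620, plus strand) lies apart from the cluster. Cd300lf lies inside Rab37 (chr11:115091431-115162236, plus strand), a small GTPase gene, but the exons of the 2 genes share 0 bases.

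**Figure D1:**
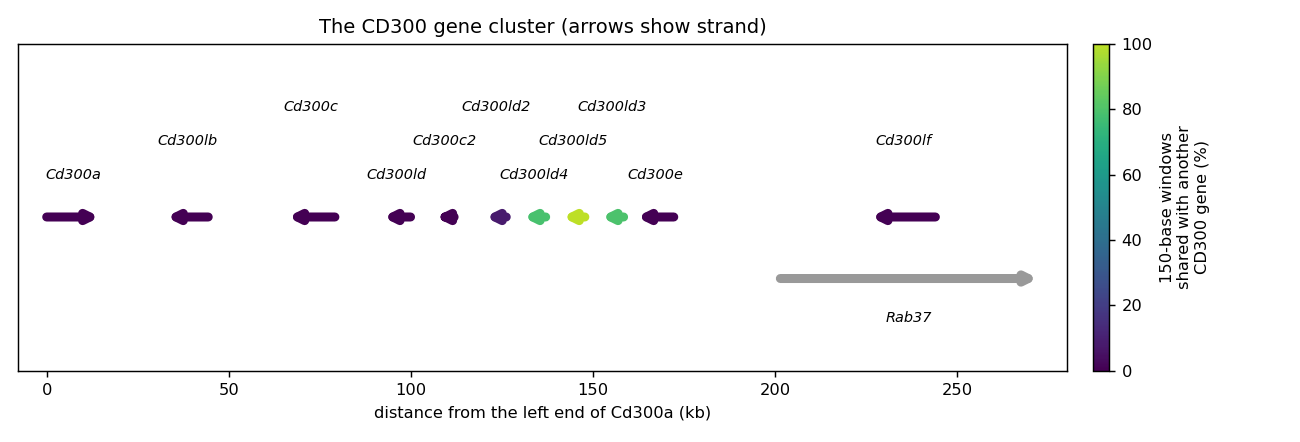
Map of the CD300 cluster. The x axis is the distance from the left end of Cd300a in kb, each arrow is a gene pointing along its strand, the colour gives the share of its 150-base transcript windows that also occur in another CD300 gene (%), and Rab37 is grey. The 6 members of the cluster are at 0%, while Cd300ld3, Cd300ld4 and Cd300ld5 are at 79.5%, 78.7% and 100%.

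The promoters of 3 members are shown because these members behaved differently in the luteolin libraries. Cd300lf was higher with little spread, Cd300e was near 0 without luteolin and higher with it, and Cd300a was higher in a single luteolin library. RefSeq promoter sequences (GRCm38.p6, 250 bases before to 50 bases after the start) matched 10 of the 12 CD300 genes of the table, among them 6 of the 7 members. They were searched on both strands for 4 motifs. These were GAGGAAGT, a form of the site of PU.1 (a myeloid transcription factor), TTCNNNGAA, the GAS site of STAT proteins, TTGCNNAA, a form of the C/EBP site, and the interferon-stimulated response element, searched as GAAA and GAAA with 2 bases between them. Capitals below mark the motif found.
Cd300lf, chr11:115133943-115134242, minus strand: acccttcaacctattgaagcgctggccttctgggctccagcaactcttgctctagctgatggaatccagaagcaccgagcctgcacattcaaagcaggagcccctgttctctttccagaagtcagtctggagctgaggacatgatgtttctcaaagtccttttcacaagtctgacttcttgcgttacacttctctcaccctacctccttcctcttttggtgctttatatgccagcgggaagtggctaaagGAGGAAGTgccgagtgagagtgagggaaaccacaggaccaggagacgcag
Cd300e, chr11:115061990-115062289, minus strand: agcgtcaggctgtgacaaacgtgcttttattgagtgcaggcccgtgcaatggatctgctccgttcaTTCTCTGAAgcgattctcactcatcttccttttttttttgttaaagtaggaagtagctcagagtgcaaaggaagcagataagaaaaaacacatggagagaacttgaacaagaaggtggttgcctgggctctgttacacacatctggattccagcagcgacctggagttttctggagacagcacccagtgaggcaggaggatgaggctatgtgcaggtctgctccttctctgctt
Cd300a, chr11:114889791-114890090, plus strand: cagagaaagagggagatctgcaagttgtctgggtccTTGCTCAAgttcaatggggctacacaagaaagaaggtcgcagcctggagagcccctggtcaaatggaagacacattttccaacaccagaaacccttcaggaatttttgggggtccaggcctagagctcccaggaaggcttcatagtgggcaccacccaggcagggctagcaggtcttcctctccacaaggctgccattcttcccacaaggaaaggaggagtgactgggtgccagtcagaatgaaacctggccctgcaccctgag
In Cd300lf, GAGGAAGT began at the annotated start. It also occurred in Cd300ld, 143 bases before the start, and in Cd300ld3, Cd300ld4 and Cd300ld5, 187 bases before it, so that 5 of the 10 CD300 promoters held these letters, against 3.2% of 32851 RefSeq promoters. The 4 promoters of the Cd300ld group are shown over 48 bases to compare the flanks.
Cd300ld, chr11:114990002-114990049, minus strand: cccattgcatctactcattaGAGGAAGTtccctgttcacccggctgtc
Cd300ld3, chr11:115048490-115048537, minus strand: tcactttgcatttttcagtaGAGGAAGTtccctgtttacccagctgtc
Cd300ld4, chr11:115027093-115027140, minus strand: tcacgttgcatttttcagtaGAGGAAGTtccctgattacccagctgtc
Cd300ld5, chr11:115037850-115037897, minus strand: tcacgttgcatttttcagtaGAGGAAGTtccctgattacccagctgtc
The windows of Cd300ld4 and Cd300ld5 were identical, so these promoters are not independent of each other. TTCNNNGAA occurred in Cd300e, 184 bases before the RefSeq start, and in 8.3% of all promoters. That start lies inside Cd300e as GENCODE places it, so the motif is nearer to the GENCODE start. TTGCNNAA occurred in Cd300a, 214 bases before the start, and in 10.8% of all promoters. The response element occurred in Cd300c and Cd300c2 and in 3.44% of all promoters. A match is a description of the letters only.

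Totals ranged from 61081637 to 80442954 counts per library, and 15579 to 16767 genes were above 0. Values are CPM, the counts per library scaled to a common total after TMM normalisation, and fold changes are log2 values from edgeR with their standard error (SE). Luteolin replicate 2 stood apart in markers of skin. The summed keratinocyte markers were 8124 CPM in it, 347 CPM in luteolin replicate 1, 14.2 CPM in luteolin replicate 3 and 3.23 to 4.28 CPM in the control libraries, where Krt14, Krt5, Krt1 and Lor were at 0. Each member's fold change is therefore also given without this library. Of 7 hepatocyte and hepatoma markers, Trf stood at 122 to 347 CPM and Afp at 32.7 to 66.7 CPM, and Alb varied from 0.868 to 133 CPM. Hnf4a and Ttr, which define hepatocytes, were at most 0.327 and 0.392 CPM and at 0 in 2 of the 3 control libraries.

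Cd300lf, an inhibitory receptor for ceramide that is found on mast cells, neutrophils and macrophages, was 14.9, 13.3 and 14.6 CPM in the control libraries and 51.7, 47.3 and 50.7 CPM in the luteolin libraries. The lowest luteolin library lay well above the highest control library, and all 3 luteolin libraries were close together. The means were 14.3 ± 0.837 CPM and 49.9 ± 2.32 CPM (SD, n = 3 each), and the log2 fold change was 1.80 (SE 0.16). Without luteolin replicate 2 it was 1.86. The coefficient of variation of Cd300lf was 5.86% among the control libraries and 4.65% among the luteolin libraries, against medians of 20.6% and 24.6% over all tested genes. Cd300lf was chosen for its small p value, which favours a small spread, so nothing is read from this comparison.

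Rab37, whose gene spans Cd300lf on the other strand and which acts in the release of secretory granules, had a much lower level. It was 0.124 to 0.458 CPM in the control libraries and 0.718 to 1.95 CPM in the luteolin libraries, with a log2 fold change of 2.02 (SE 0.71) and an adjusted p of 0.184 in edgeR. The sources used here do not say whether counting used the strand, so reads from the overlapping stretch may not be assigned with certainty.

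Cd300a, the inhibitory receptor for phosphatidylserine and phosphatidylethanolamine, was 15.9, 12.8 and 13.6 CPM in the control libraries and 14.6, 32.7 and 14.2 CPM in the luteolin libraries. Only luteolin replicate 2 lay above the control libraries, and the other 2 luteolin libraries fell among them. The log2 fold change was 0.54 (SE 0.36) with all libraries and 0.05 without luteolin replicate 2. The 2 inhibitory members thus differed in pattern, and over the 6 libraries the Pearson correlation of their log2 CPM was 0.44, the lowest of the 21 pairs of members.

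**Figure D2:**
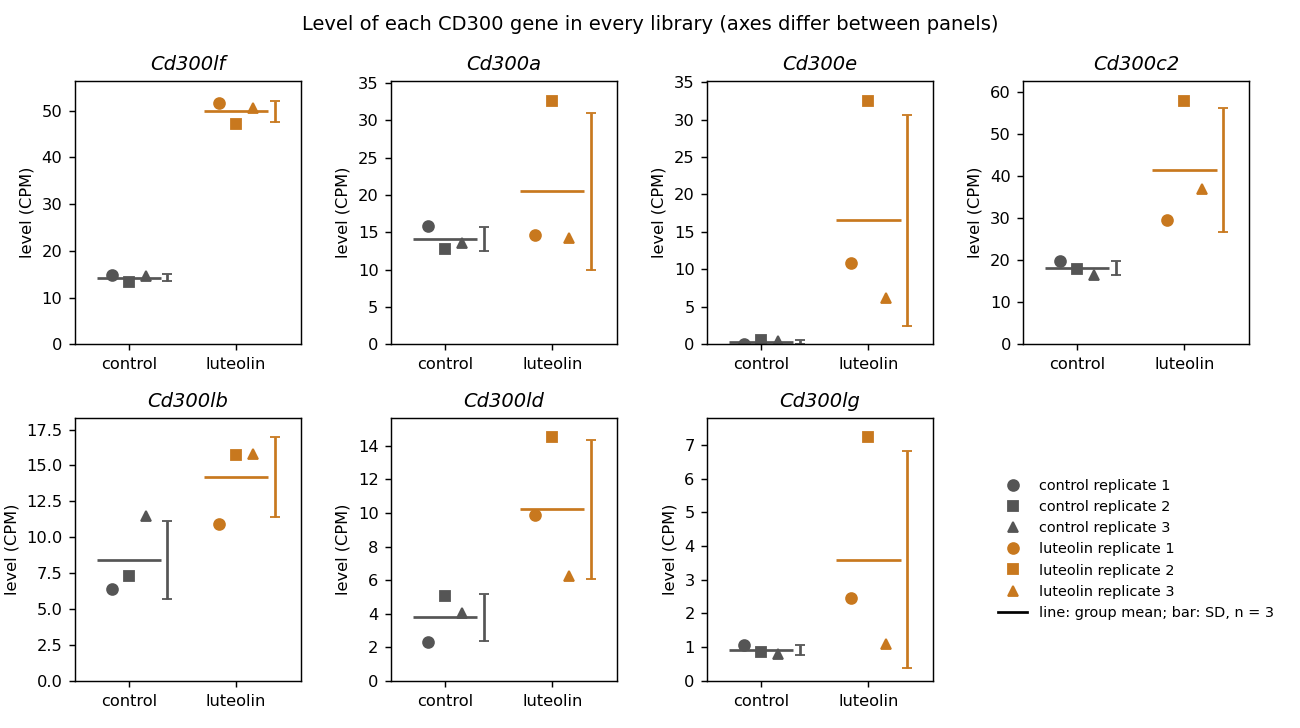
Level of each member in every library. The y axis is the level in CPM on an axis starting at 0 that differs between panels, points are libraries with the replicate given by shape, lines are group means and bars are SDs (n = 3). Cd300lf is 13.3 to 14.9 CPM in the control group and 47.3 to 51.7 CPM in the luteolin group, while luteolin replicate 2 alone is high for Cd300a (32.7 CPM) and Cd300lg (7.23 CPM).

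Among the activating receptors, Cd300e showed the largest difference of the 7 members. This receptor of monocytes and other myeloid cells had 4, 37 and 28 counts in the control libraries, or 0.0572, 0.571 and 0.434 CPM. In the luteolin libraries it had 667, 2719 and 393 counts, or 10.9, 32.5 and 6.15 CPM. The groups were far apart, yet the 3 luteolin libraries varied strongly, and luteolin replicate 2 held 3.82 times the mean of the other 2. The log2 fold change was 5.54 (SE 1.02), and 4.61 without luteolin replicate 2. It rests on a control level of few counts, and its ratio of group means was 46.6 with all libraries and 24.0 without luteolin replicate 2.

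Cd300c2, an activating receptor also known as CLM-4, was 19.7, 17.96 and 16.4 CPM in the control libraries and 29.5, 57.9 and 36.9 CPM in the luteolin libraries. All luteolin libraries exceeded all control libraries, with luteolin replicate 2 the highest. The log2 fold change was 1.20 (SE 0.27), and 0.90 without luteolin replicate 2.

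Cd300ld, which pairs with the Fc receptor gamma chain, was 2.30, 5.03 and 4.02 CPM in the control libraries and 9.89, 14.5 and 6.23 CPM in the luteolin libraries. The groups did not overlap, although luteolin replicate 3 stood only a little above control replicate 2. The log2 fold change was 1.43 (SE 0.44), and 1.11 without luteolin replicate 2.

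Cd300lb, which signals through Tyrobp, was 6.42, 7.27 and 11.5 CPM in the control libraries and 10.95, 15.75 and 15.82 CPM in the luteolin libraries. The groups overlapped, since control replicate 3 was above luteolin replicate 1. The log2 fold change was 0.75 (SE 0.31), and 0.69 without luteolin replicate 2.

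Cd300lg, the endothelial member, was 1.07, 0.865 and 0.806 CPM in the control libraries and 2.45, 7.23 and 1.10 CPM in the luteolin libraries. The groups did not overlap, but luteolin replicate 3, at 70 counts, differed little from control replicate 1, at 75 counts in a larger library. The log2 fold change was 1.97 (SE 0.72), and 0.97 without luteolin replicate 2, which held 4.08 times the mean of the other luteolin libraries. Over all tested genes the median of that ratio was 1.06. The summed markers of endothelium were 109 to 124 CPM in the control libraries and 198, 345 and 118 CPM in the luteolin libraries. They had the order of Cd300lg within the luteolin group, but luteolin replicate 3 lay among the control libraries, and their part in the Cd300lg values was not tested.

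**Figure D3:**
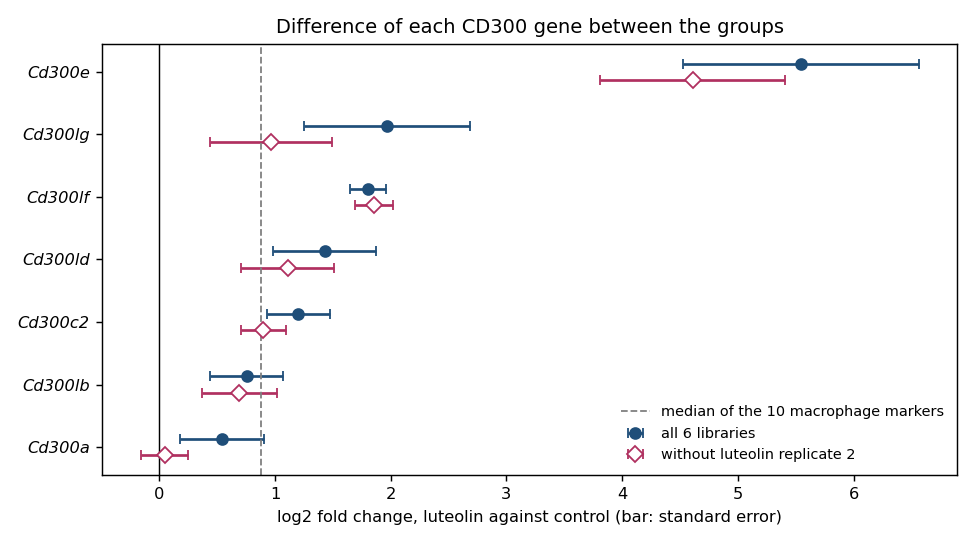
Difference of each member between the groups. The x axis is the log2 fold change (luteolin against control), filled circles are fits of all 6 libraries, open diamonds leave out luteolin replicate 2, bars are SEs, and the dashed line is the median of the 10 macrophage markers (0.88). Cd300lf stays near 1.80 in both fits, Cd300a goes from 0.54 to 0.05 and Cd300lg from 1.97 to 0.97.

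At an unadjusted p under 0.05 with a fold change over 2, the rule the study used, 5 of the 7 members were higher in the luteolin group, beside 11.3% of the 14963 tested genes. They were Cd300lf, Cd300e, Cd300ld, Cd300c2 and Cd300lg. None of the 7 was lower by that rule, beside 1.52% of the tested genes, and the same was true at an unadjusted p under 0.05, in DESeq2 and in voom. At an adjusted p under 0.05, 1 of the 7, Cd300lf, was higher, beside 1.34% of the tested genes, and 0 were lower, beside 0.187%. In the same 5 members every luteolin library lay above every control library, beside 15.9% of the tested genes. The median log2 fold change was 1.43 over the members and -0.01 over all tested genes. Since the members were chosen on this comparison, nothing is read from these counts. Without luteolin replicate 2 the counts were 3 of 7 by the study's rule and 2 of 7 at an adjusted p. Beside them, 1417 and 312 of 15137 tested genes were called in either direction. Without control replicate 1, 2 or 3 or luteolin replicate 1, edgeR called 0 members and 0 of all tested genes at an adjusted p. At an unadjusted p under 0.05 there were 4 to 6 members, beside 1907 to 2462 of 15272 to 15530 tested genes.

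The table holds 5 further CD300 genes, and the transcripts of 3 of them largely coincide. In windows of 150 bases, the read length, Cd300ld3 shared 79.5%, Cd300ld4 78.7% and Cd300ld5 100% of its transcript sequence with another CD300 gene, so the division of reads among them is uncertain. For Cd300ld2 the share was 8.19%, and for each of the 7 members it was 0%. Proteins translated from GENCODE M21 were 100% identical between Cd300ld4 and Cd300ld5 and 74.3% identical between Cd300ld and Cd300ld3.

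Cd300ld3 was 3.92 to 5.41 CPM in the control libraries and 8.01 to 16.9 CPM in the luteolin libraries, with a log2 fold change of 1.34 (SE 0.35) and an adjusted p of 0.109. The values of Cd300ld5 were 1.32 (SE 0.45) and 0.175, those of Cd300ld4 1.17 (SE 0.59) and 0.321, and those of Cd300ld2, with 0 counts in 2 control libraries, 2.17 (SE 1.62) and 0.512. Of these 4 tested genes, 2 (Cd300ld3 and Cd300ld5) were higher by the study's rule, beside 11.3% of all tested genes. In edgeR 0 of the 4 passed an adjusted p under 0.05, beside 1.34% of all tested genes that were higher. 2 had an unadjusted p under 0.05, and DESeq2 and voom each called 2 at an adjusted p. Beside them, DESeq2 called 1958 of 17790 genes in either direction and voom 3197 of 14963. At an unadjusted p under 0.05, edgeR with RLE factors, an alternative fit, had 3056 of 14963 genes in either direction. Cd300c had 0 to 12 counts in the control libraries and 6 to 18 in the luteolin libraries and was not tested.

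In the same translated proteins, Cd300lf (337 residues) and Cd300a (318 residues) each had 2 matches to the inhibitory tyrosine motif in a tail of 127 and 114 residues, counted from the end of the most hydrophobic stretch of 19 residues. The tails of Cd300e, Cd300lb, Cd300ld and Cd300c2 had 3 to 33 residues and 0 matches. A lysine lay in or beside the hydrophobic stretch in Cd300e, Cd300lb and Cd300c2, and a glutamate in Cd300ld. Charged residues lay there in the other members too, an aspartate in Cd300lf and arginine in Cd300a and Cd300lg. Having one therefore did not set the activating members apart. Cd300lg, with 415 residues, had 0 matches in its tail. Cd300lf was nearest among the members to Cd300ld (56.6% identical) and Cd300a to Cd300c2 (62.9%), so an inhibitory and an activating member stood closest in each case.

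Levels of different members were compared per kilobase of exon. In the control group the order was Cd300c2 (14.1 ± 1.30 CPM per kb, SD, n = 3), Cd300a (2.97 ± 0.338), Cd300lb (2.88 ± 0.933), Cd300lf (2.77 ± 0.163), Cd300ld (1.43 ± 0.522), Cd300lg (0.334 ± 0.0512) and Cd300e (0.170 ± 0.128). Cd300c2 stood clear above the rest, whereas Cd300a, Cd300lb and Cd300lf did not differ beyond their spread.

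In the luteolin group Cd300c2 was again highest per kilobase, at 32.5 ± 11.6 CPM per kb. It was followed by Cd300lf (9.69 ± 0.450), Cd300e (7.92 ± 6.74), Cd300lb (4.86 ± 0.956), Cd300a (4.32 ± 2.23), Cd300ld (3.86 ± 1.57) and Cd300lg (1.31 ± 1.18). Cd300c2 again did not overlap any other member, while Cd300e, at 2.95 to 15.6 CPM per kb, overlapped with its neighbours on both sides. Of the summed level of the 7 members, Cd300lf made up 11.2% without and 16.3% with luteolin, Cd300e 0.694% and 11.1%, Cd300a 12.0% and 6.48%, and Cd300c2 57.2% and 50.4%. The sum was 24.4 to 25.2 CPM per kb in the control libraries and 49.8, 90.6 and 52.9 CPM per kb in the luteolin libraries.

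The place of Cd300lf in the control group depends on the transcript taken. Its joined exons measure 5149 bases and its longest protein-coding transcript 1885 bases. With the latter length its level was 7.58 CPM per kb in the control group, second to Cd300c2, and 26.5 CPM per kb in the luteolin group, where its 3 libraries (25.1 to 27.4) lay within the range of Cd300c2 (24.8 to 48.8).

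In bulk tissue, fewer cells of a type and less RNA per cell cannot be told apart. The levels of the members were therefore set beside markers of the cells that carry them. Counts of markers below stand beside the shares of all tested genes, 11.3% higher and 1.52% lower by the study's rule. At an adjusted p under 0.05 in edgeR these shares were 1.34% and 0.187%. In either direction, DESeq2 called 1958 of 17790 genes at an adjusted p and voom 3197 of 14963. At an unadjusted p under 0.05, edgeR with RLE factors, an alternative fit, had 3056 of 14963 genes in either direction. The 10 macrophage markers summed to 1944 to 2255 CPM in the control libraries and 2542, 3728 and 3306 CPM in the luteolin libraries. By the study's rule 3 of them (Cd68, Fcgr1 and Cd163) were higher, and 1 (Cd68) rose at an adjusted p under 0.05 in edgeR. At an unadjusted p under 0.05, 9 were higher, all but Lyz2, and 0 were lower. DESeq2 and voom called 5 and 6 higher at an adjusted p. The median log2 fold change of the 10 was 0.88. The marker with the highest mean CPM, Lyz2, which encodes lysozyme, was 1046 ± 87.4 CPM among the control and 1230 ± 307 CPM among the luteolin libraries (adjusted p = 0.590), and C1qa, a subunit of complement C1q, was 212 ± 38.2 and 368 ± 131 CPM (adjusted p = 0.185).

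Relative to the mean log2 CPM of these 10 macrophage markers, Cd300lf was -2.81, -3.001 and -2.98 in the control libraries and -1.85, -2.40 and -1.87 in the luteolin libraries, a difference of 0.89. The groups did not overlap, and luteolin replicate 2 was nearest to the control group. Cd300e likewise separated the groups on this scale, with a difference of 4.58. For the other 5 members the groups overlapped, and the differences were 0.63 for Cd300lg, 0.50 for Cd300ld, 0.24 for Cd300c2, -0.13 for Cd300lb and -0.48 for Cd300a. Without luteolin replicate 2 they were 0.06 for Cd300lg, 0.35 for Cd300ld, 0.11 for Cd300c2, -0.07 for Cd300lb and -0.73 for Cd300a. These values were not tested.

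**Figure D4:**
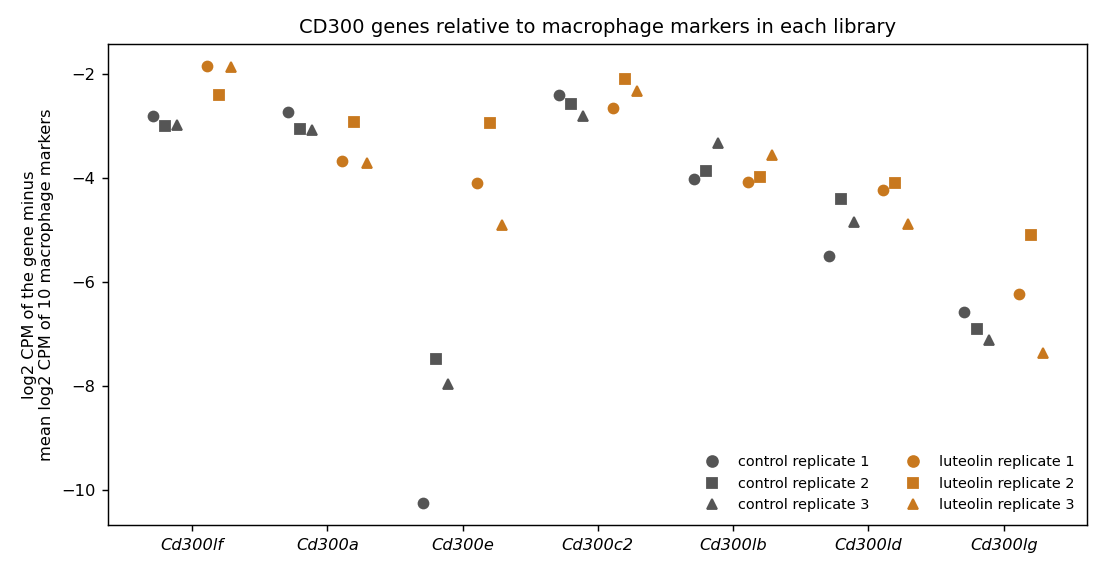
Level of each member relative to macrophage markers in each library. The y axis is log2 CPM of the member minus the mean log2 CPM of 10 macrophage markers, and each point is a library (grey for control, orange for luteolin, shape for the replicate). Cd300lf (-3.001 to -2.81 against -2.40 to -1.85) and Cd300e separate the groups, and the other 5 members overlap.

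Neutrophils and mast cells also carry several CD300 receptors. The neutrophil markers summed to 18.97 to 22.4 CPM in the control libraries and 169, 182 and 88.3 CPM in the luteolin libraries, with a median log2 fold change of 2.25 over 7 tested genes, 5 of them higher by the study's rule. S100a8 and S100a9, subunits of calprotectin, rose at an adjusted p under 0.05. S100a9 went from 1.80 ± 0.692 to 46.7 ± 28.9 CPM and Csf3r, the G-CSF receptor, from 14.3 ± 2.13 to 67.9 ± 40.4 CPM (adjusted p = 0.0643). Ngp was at 0 in the control libraries, did not pass the filter on low counts and was not tested. Ly6g and Retnlg of the same list had log2 fold changes of -0.57 and 0.43 and were not called. Set against the mean of the neutrophil list in place of the macrophage list, a comparison added after the data were seen, only Cd300e was higher in the luteolin group (3.26), and Cd300lf was at -0.43.

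The mast cell markers summed to 7.77 to 13.9 CPM in the control libraries and 63.1, 96.1 and 29.6 CPM in the luteolin libraries. Of the 7, 6 were higher by the study's rule and 0 passed an adjusted p under 0.05 in edgeR. 6 had an unadjusted p under 0.05, and DESeq2 and voom called 6 each. Those with the highest mean CPM were the proteases Mcpt4 (2.02 ± 1.63 and 16.8 ± 10.7 CPM, adjusted p = 0.0973) and Tpsb2 (1.71 ± 0.495 and 15.1 ± 9.35 CPM, adjusted p = 0.0531). The part of neutrophil and mast cell RNA in the members' values was not tested.

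Markers of other cells were counted in the same way. By the study's rule, 6 of 6 T cell markers (median log2 fold change 2.12, 1 of them, Cd8a, at an adjusted p under 0.05), 4 of 6 dendritic cell markers (1.78), 2 of 5 B cell markers (2.04) and 3 of 8 endothelial markers (0.86) were higher. The T cell markers with the highest mean CPM were the T cell receptor subunit Cd3g (2.06 ± 0.544 and 10.3 ± 5.21 CPM, adjusted p = 0.0659) and the co-receptor Cd4 (3.68 ± 1.12 and 11.4 ± 5.43 CPM, adjusted p = 0.110). Of the dendritic cell markers, the transcription factor Zbtb46 was 30.5 ± 5.02 and 24.4 ± 3.17 CPM (adjusted p = 0.414), and the lectin Cd209a 0.994 ± 0.254 and 5.61 ± 4.21 CPM (adjusted p = 0.142). The B cell receptor subunits Cd79a (1.70 ± 0.684 and 4.82 ± 2.50 CPM) and Cd79b (1.26 ± 0.370 and 5.71 ± 4.79 CPM) had adjusted p values of 0.187 and 0.139. The endothelial adhesion proteins Pecam1 (44.4 ± 6.32 and 91.8 ± 36.3 CPM) and Cdh5 (23.8 ± 2.71 and 37.8 ± 23.7 CPM) had adjusted p values of 0.126 and 0.484.

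The hepatocyte and hepatoma markers summed to 367 to 425 CPM in the control libraries and 195 to 355 CPM in the luteolin libraries. Trf, which encodes transferrin, and Afp, the alpha-fetoprotein of fetal liver and hepatoma, lay below every control library in all luteolin libraries. Trf was 321 ± 26.3 and 177 ± 92.2 CPM (log2 fold change -0.86, SE 0.34, adjusted p = 0.219), and Afp was 56.5 ± 11.9 and 37.7 ± 4.67 CPM (-0.58, SE 0.21, adjusted p = 0.187). Alb, Ttr, Apoa1 and Apob of the same list went the other way, with log2 fold changes of 1.57, 1.90, 1.29 and 1.54. None of these was called by the study's rule or at an adjusted p under 0.05. Ttr, Apoa1 and Apob were at 0 in control replicate 3. The list as a whole had a median of 1.41. Of the 6 tested genes of this list, 0 were lower at an adjusted p under 0.05 in edgeR and 0 in DESeq2, 2 were lower in voom, and 2 had an unadjusted p under 0.05 and were lower.

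The 4 tested keratinocyte markers were all higher by the study's rule and the 4 tested adipocyte markers were not, and the summed level of both lists was highest in luteolin replicate 2. The summed adipocyte markers were 66.0 CPM in that library, 7.69 and 0.313 CPM in the other luteolin libraries and 0 to 12.6 CPM in the control libraries. Lep was at 0 in the control libraries and was not tested. Krt14, the keratin of basal epidermis, was 157, 2439 and 4.33 CPM in the luteolin libraries, and Krt10, the keratin of upper layers, was 61.1, 2013 and 4.26 CPM there and 3.23 to 4.28 CPM in the control libraries. Adipoq, the adipokine adiponectin, was 0 to 5.47 CPM in the control libraries and 0.0626 to 14.4 CPM in the luteolin libraries, and Cidec, a lipid droplet protein, 0 to 3.80 and 0.125 to 23.3 CPM.

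The genes around the receptors were read from 6 lists of 48 genes, of which 47 were tested. At an adjusted p under 0.05, 7 of the 47 rose and 0 fell, beside 1.34% and 0.187% of all tested genes. By the study's rule 25 were higher and 0 lower, beside 11.3% and 1.52% of all tested genes. The median log2 fold change was 1.15, against -0.01 over all tested genes. The lists were chosen with earlier results of these data known, so these counts and those per list below are a description. The same shares of all tested genes stand beside the counts per list. For DESeq2, voom and an unadjusted p, the numbers of all genes given with the cell markers stand beside them. 0 were lower at an unadjusted p under 0.05, and 0 in DESeq2 or voom at an adjusted p. The count of 7 became 10 without luteolin replicate 2 and 0 without control replicate 1, 2 or 3 or luteolin replicate 1. In those fits with a count of 0, 27 to 30 genes had an unadjusted p under 0.05, beside 1907 to 2462 of 15272 to 15530 tested genes.

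All 3 adaptors were higher by the study's rule, but 0 passed an adjusted p under 0.05 in edgeR, 3 had an unadjusted p under 0.05, and DESeq2 and voom called 2 each. Tyrobp, the partner of Cd300lb and Cd300e, was 52.0, 46.5 and 24.3 CPM in the control libraries and 71.2, 148 and 71.7 CPM in the luteolin libraries (log2 fold change 1.25, SE 0.40, adjusted p = 0.158). Fcer1g was 23.3, 23.7 and 16.0 CPM and 47.4, 106 and 34.3 CPM (1.57, SE 0.43, adjusted p = 0.118). Both were highest in luteolin replicate 2, as were Cd300a, Cd300c2, Cd300e, Cd300ld and Cd300lg. Hcst (DAP10) was lower throughout, at 0.527 to 1.02 and 1.21 to 2.96 CPM (1.49, SE 0.54, adjusted p = 0.192).

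Of the phosphatases recruited by the inhibitory members, Inpp5d rose from 20.8 ± 1.62 to 47.5 ± 9.17 CPM (log2 fold change 1.19, SE 0.19, adjusted p = 0.0437). Ptpn6 was 57.8 ± 7.31 and 94.8 ± 36.0 CPM (0.71, SE 0.27, adjusted p = 0.208). Ptpn11 was 191 ± 95.0 and 153 ± 84.1 CPM (-0.32, SE 0.58, adjusted p = 0.811), with control replicate 3 and luteolin replicate 2 far below the other libraries of their groups.

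Of the 11 kinases and effectors, 3 rose and 0 fell, and 6 were higher by the study's rule. Syk, the kinase that binds the activated adaptors, was 41.6, 32.8 and 36.5 CPM in the control libraries and 95.4, 149 and 86.0 CPM in the luteolin libraries (log2 fold change 1.57, SE 0.24, adjusted p = 0.0403). Fyn, a Src-family kinase, was 11.5 ± 0.855 and 32.6 ± 8.07 CPM (1.51, SE 0.23, adjusted p = 0.0403). The third was Vav1, a guanine nucleotide exchange factor (1.57, SE 0.25, adjusted p = 0.0437).

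Among the 5 ligands and partners 0 passed an adjusted p under 0.05 in edgeR, 3 had an unadjusted p under 0.05, and DESeq2 and voom called 3 and 4. Il4ra, the interleukin 4 receptor chain that associates with Cd300lf, was 113 ± 12.4 and 217 ± 50.1 CPM (log2 fold change 0.94, SE 0.20, adjusted p = 0.0776). Cd14, which joins Cd300lb in lipopolysaccharide sensing, was 17.98 ± 1.70 and 40.02 ± 12.7 CPM (1.15, SE 0.27, adjusted p = 0.0918), whereas Tlr4 of the same complex was 28.7 ± 6.91 and 25.96 ± 7.19 CPM (-0.15, SE 0.28, adjusted p = 0.827).

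Havcr1 (TIM-1), a ligand of Cd300lb, was 0 to 0.372 and 1.03 to 1.42 CPM (log2 fold change 2.56, SE 1.17, adjusted p = 0.278).

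Among 12 tested genes of other phosphatidylserine receptors and their bridging proteins, 2 rose, and 5 were higher by the study's rule. Havcr2 (TIM-3) was 3.79, 5.64 and 6.001 CPM in the control libraries and 27.0, 15.5 and 23.4 CPM in the luteolin libraries (log2 fold change 2.09, SE 0.32, adjusted p = 0.0393). Within the luteolin group it was lowest in luteolin replicate 2, as was Cd300lf. Itgb3, the beta 3 integrin, was 8.20 ± 0.608 and 20.9 ± 3.29 CPM (1.35, SE 0.22, adjusted p = 0.0437).

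Among 13 other paired receptors of myeloid cells 1 rose, and 8 were higher by the study's rule. Sirpa, the receptor for CD47, was 45.7, 41.2 and 42.9 CPM in the control libraries and 91.1, 100 and 88.2 CPM in the luteolin libraries (log2 fold change 1.11, SE 0.14, adjusted p = 0.0331). Like Cd300lf it varied little within each group, and both were named for a small p value. Pirb, an inhibitory receptor for MHC class I, was 23.4 ± 1.38 and 78.5 ± 38.01 CPM (1.75, SE 0.34, adjusted p = 0.0619).

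**Figure D5:**
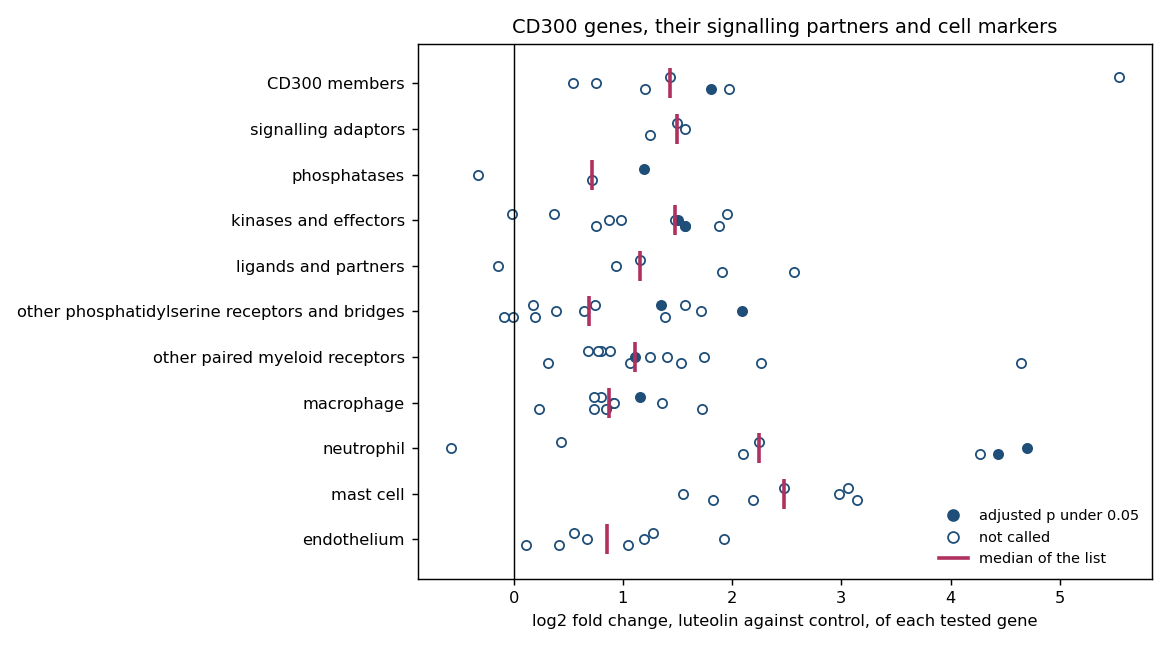
Members, genes of the pathway and cell markers. The x axis is the log2 fold change (luteolin against control) of each tested gene, filled points have an adjusted p under 0.05, open points do not, and the vertical bar is the median of each list. The median is 1.43 for the members, 0.88 for the macrophage markers, 2.25 for the neutrophil markers and 0.86 for endothelium.

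The tested genes most like Cd300lf over the 6 libraries were Olfm4, a granule glycoprotein of neutrophils (Pearson r of log2 CPM 0.998), Marchf1, a ubiquitin ligase for MHC class II (0.997), Serpina3f, a protease inhibitor (0.997), Cblb, a ubiquitin ligase of immune cells (0.996), and Actr3, a subunit of the Arp2/3 complex (0.994). Marchf1 was 6.50 to 7.08 CPM in the control libraries and 16.3 to 18.1 CPM in the luteolin libraries, and Olfm4 was at 0 in the control libraries and 0.503 to 0.718 CPM in the luteolin libraries. All 5 separated the groups with little spread inside each, which follows from their choice by correlation with Cd300lf. The r is a description over libraries that share their group.

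The genes most like Cd300lg were Adcy3, an adenylyl cyclase (0.997), Fscn1, an actin-bundling protein (0.996), Cldn4, a tight junction protein of epithelia (0.996), Col4a1, a basement membrane collagen (0.996), and Alox5, the enzyme that starts leukotriene synthesis (0.996). All 5 were highest in luteolin replicate 2, which follows from their choice by correlation with Cd300lg. Cldn4 was 30.3 CPM there against 1.06 and 3.31 CPM in the other luteolin libraries. Between members, r ranged from 0.44 for Cd300lf and Cd300a to 0.97 for Cd300e and Cd300ld.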

How the data were processed

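The authors deposited a table of whole numbers, not scaled between libraries, which were analysed as estimated counts, since 44.8% of the values from 1 to 40 are multiples of 4. All 6 libraries were used, and 0 columns were left out. The submitters' processing notes name bcl2fastq 2.0, HISAT2, StringTie and DESeq2 and the builds rn6 and mm39, without their roles. Labels and paper name different RNA and library kits, and neither states strandedness.

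Counts were compared in R 4.3.3 with edgeR 4.0.16 (TMM, filterByExpr, two-sided quasi-likelihood test, Benjamini-Hochberg adjustment over 14963 genes), a pipeline tested on simulated data. The simulation gave every gene the same dispersion and held no outlying library, so it does not cover a library such as luteolin replicate 2. The comparison was between control and luteolin libraries, without covariates. Log2 levels have a prior count of 2. The alternatives were DESeq2 1.42.0, limma 3.58.1 voom, other normalisations and filters, values divided by 4, the replicate number as a block, other gene lengths and marker lists, and the omission of each library.

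The members and lists were chosen with earlier results of these data known. All members, all genes of lists of up to 6 genes, the 2 smallest p values of longer pathway lists, the 2 genes of highest mean CPM in each marker list, genes overlapping a member and the 5 most correlated with Cd300lf and Cd300lg were named. Other named genes (Vav1 and markers listed by a count) were chosen after their values were seen. Positions come from GENCODE M21 on GRCm38, and promoters from RefSeq on GRCm38.p6, which is not a build of the notes. A gene of the ligand list is not reported here.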

Additional observations from a re-analysis of the deposited data

How the results depend on the processing

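Over 97 alternative values of the members' log2 fold changes, all kept a positive sign and 94 moved by less than the spread. The exceptions were Cd300lf and Cd300c2 in voom (1.91 and 0.83) and Cd300lg without luteolin replicate 2 (0.97). The spread is each gene's own SD of log2 CPM within groups, 0.08 for Cd300lf, 0.50 for Cd300a and 1.38 for Cd300e. A gene of wide spread can thus shift far without being counted, as did Cd300a (0.54 to 0.05 without luteolin replicate 2) and Cd300e (5.54 to 4.53 in voom). Counts at an adjusted p under 0.05 depended most on the setting. Against 228 genes, 1 member and 7 pathway genes in edgeR, DESeq2 called 1958, 4 and 28 and voom 3197, 4 and 33. Values divided by 4 gave 373 genes and 2 members, and a minimum of 10 counts in every library gave 392 genes. With the replicate number as a block, edgeR called 35 genes, 0 members and 0 pathway genes. At an unadjusted p under 0.05 that fit had 5 members and 30 pathway genes, beside 2297 of 14963 tested genes. Deviations of same-numbered libraries correlated at -0.196, -0.092 and 0.063, and those of the other pairs at -0.124 to 0.2. Deviations from the mean of only 3 libraries depend on each other, so these values cannot decide whether the numbers pair the libraries. On leaving out single libraries, the counts ranged from 0 to 312 genes, 0 to 2 members and 0 to 10 pathway genes. Where edgeR called 0, 1907 to 2462 genes had an unadjusted p under 0.05. By the study's rule the members ranged from 3 to 5, beside 1417 to 2409 genes. The order of the members' mean levels over all libraries together kept 3 to 7 places of 7, the fewest without luteolin replicate 2. With other transcript lengths it kept 7, although Cd300lf went from place 4 to 2 within the control group. The difference of group means was above 0 for 5 to 6 members relative to macrophage markers, and for 1 relative to neutrophil markers. The causes were not tested. Cd300e, with 69 counts over the control libraries, is the member most limited by depth.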
